A study of Homo sapiens with 2 samples.

Results

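The genes described here are the 6 GATA transcription factors, GATA1 to GATA6, and their cofactors of the Friend of GATA family, ZFPM1 (FOG1) and ZFPM2 (FOG2). They were found through the probe annotation of a pair of promoter arrays, which gives for each probe the gene and the distance to its transcription start. Of the 8 genes, 7 had probes, 332 of 474411 genomic probes in all, and all 332 passed the filters on spot quality and brightness. The arrays name 17280 genes in total. No probe of either array was annotated to ZFPM2, so that gene was not analysed here.

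Chromatin came from untreated Meg-01 cells, a megakaryocytic leukemia cell line derived from a single patient. DNA pulled down with the GATA1 C-20 antibody, raised against the C-terminus (the IP, labeled with Cy5), was hybridized together with DNA from a parallel pull-down with normal goat IgG (labeled with Cy3). The promoters are split over 2 arrays, chIP1 and chIP2, that carry different probes. GATA2, GATA3 and GATA4 were on chIP1, and GATA1, GATA5, GATA6 and ZFPM1 were on chIP2. Each probe was hybridized once, with no replicate and no dye swap, so no test between samples was possible and no p-value was computed.

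GATA factors bind the sequence GATA through zinc fingers. GATA1, GATA2 and GATA3 act mainly in blood cells. GATA2 is needed in stem and progenitor cells, GATA1 in red cells and megakaryocytes, and GATA3 in T cells. GATA4, GATA5 and GATA6 act mainly in the heart and in organs that arise from the gut. FOG1 binds the N-terminal zinc finger of GATA1 and is required with it for red cell and megakaryocyte development. In mouse blood cells GATA1 is known to occupy elements upstream of and inside its own gene, and to replace GATA2 protein at elements upstream of and inside the Gata2 gene as GATA2 expression falls, a change called the GATA switch.

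Each probe was given the log2 ratio of its processed Cy5 signal (IP) to its processed Cy3 signal (IgG), centered so that the array median was 0. Ratios were then averaged over 3 adjacent probes, the outer ones at most 1000 bp from the middle one. Such a window was called enriched at a mean of at least 1, that is 2-fold toward the IP, and depleted at a mean of at most -1, 2-fold toward the IgG. Adjacent windows share probes and are not independent. Distances are those given by the array, negative upstream of the start, and coordinates are those of the array, whose genome build is not given in the sources used here.

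To show what stands before the starts from which these distances run, the bases upstream of the matching RefSeq starts are given for GATA1, GATA2 and GATA3. Builds were not converted. The match was made on the interval between neighboring starts. On the array, 15526 bp separate the starts of GATA1 and HDAC6, and the closest RefSeq interval is 15477 bp. For GATA3 and its antisense neighbor FLJ45983 (GATA3-AS1) the array interval is 1219 bp, and that from the RefSeq start used here is 1204 bp. GATA2 has 2 RefSeq starts, 4671 bp apart. The array interval from GATA2 to DNAJB8 is 25937 bp, against 26311 bp from the distal start and 21640 bp from the proximal one, so the start of the array is closest to the distal start, and the proximal start lies inside the stretch covered by probes. RefSeq gives the sequences below for GRCh38.p14, each the 250 bases before a start, 5′ to 3′, with CACCC boxes (CACCC on either strand, so CACCC or GGGTG) in capitals. The CACCC box is a motif bound by factors of the KLF family.
GATA1, plus strand, chrX:48786340-48786589: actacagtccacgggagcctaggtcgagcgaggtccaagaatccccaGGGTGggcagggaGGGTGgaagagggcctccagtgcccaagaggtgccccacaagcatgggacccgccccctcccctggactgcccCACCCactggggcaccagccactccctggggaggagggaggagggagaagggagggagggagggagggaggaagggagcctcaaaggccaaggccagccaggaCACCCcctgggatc
GATA2, distal start, minus strand, chr3:128493202-128493451: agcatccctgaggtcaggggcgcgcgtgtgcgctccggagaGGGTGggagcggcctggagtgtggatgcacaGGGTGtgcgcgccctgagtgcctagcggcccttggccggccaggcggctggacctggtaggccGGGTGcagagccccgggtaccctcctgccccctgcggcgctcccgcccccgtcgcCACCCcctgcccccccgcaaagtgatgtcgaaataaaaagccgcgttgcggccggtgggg
GATA2, proximal start, minus strand, chr3:128488531-128488780: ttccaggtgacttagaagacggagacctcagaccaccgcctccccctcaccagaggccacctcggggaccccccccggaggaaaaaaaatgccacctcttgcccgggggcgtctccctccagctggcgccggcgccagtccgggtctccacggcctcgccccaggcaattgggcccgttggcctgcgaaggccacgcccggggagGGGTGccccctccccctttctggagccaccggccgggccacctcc
GATA3, plus strand, chr10:8054438-8054687: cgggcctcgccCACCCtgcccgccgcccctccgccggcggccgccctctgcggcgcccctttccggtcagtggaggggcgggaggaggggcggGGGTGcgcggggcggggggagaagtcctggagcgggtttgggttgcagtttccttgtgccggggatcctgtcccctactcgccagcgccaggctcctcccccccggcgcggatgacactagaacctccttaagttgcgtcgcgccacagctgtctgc

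None of these 4 sequences holds the letters GATA on either strand. The longer forms AGATAA and AGATAG, and the same with T as the opening letter, searched on both strands, were in none of the 11 upstream stretches that RefSeq gives for GATA1, GATA2, GATA3, GATA6 and ZFPM1, and in 22.3% of all 35116 such stretches. The 4-letter GATA was in 2 of the 6 stretches of GATA3 and in no stretch of the other 4 genes, against 45.6% of all stretches. GATA4 was left out of this search, and no stretch was available for GATA5. CACCC matched 4 times before the start of GATA1 and before the distal start of GATA2, 1 time before its proximal start, 1 to 3 times in the stretches of GATA3, 2 times in that of GATA6 and 0 times in that of ZFPM1. It matched at least 1 time in 54.7% of all stretches and 4 or more times in 2.91%. Apart from the upstream edge of the windows at the start of GATA1, the enriched windows described next lie outside these stretches, and the sequence under them was not analysed here.

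Every one of the 7 genes with probes had at least 1 enriched window, against 57.1% of the 17054 genes with a window on the arrays. The 7 genes had 24 to 82 windows each, and the median over all genes was 23, so the members had more windows in which to reach the threshold. Depleted windows were found at 3 of the 7 (GATA3, GATA5 and GATA6), against 52.9% of all genes. In all, 36 of 316 member windows were enriched (11.4%) and 7 were depleted (2.22%). On chIP1, 7.98% of all windows were enriched and 9.71% depleted, and on chIP2 7.26% were enriched and 9.59% depleted. The excess toward the IP was held mainly by GATA1 and GATA2. They had 23 of the 36 enriched windows and none of the depleted ones. By family, GATA1 to GATA3 had 26 enriched windows of 122 (21.3%) and 3 depleted, and GATA4 to GATA6 had 9 of 163 (5.52%) and 4 depleted.

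**Figure D1:**
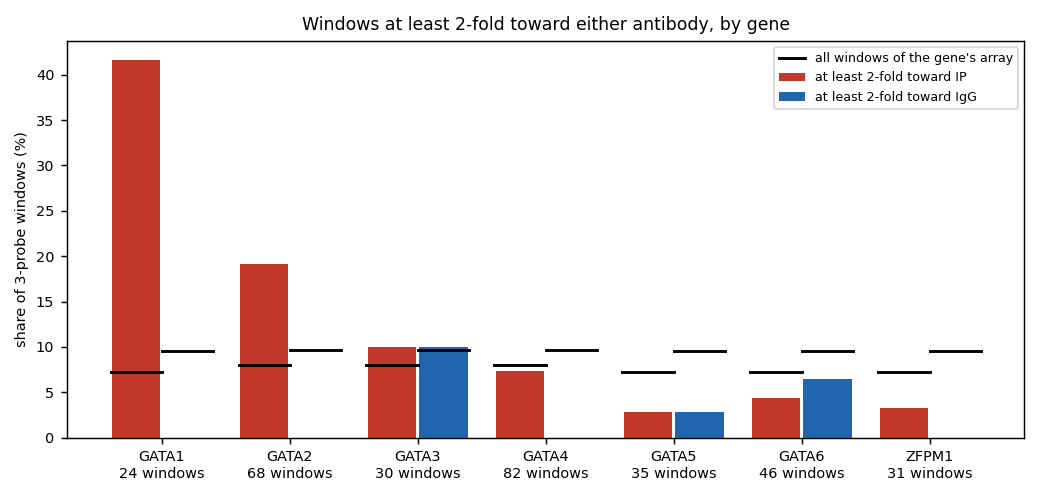
Share of 3-probe windows (percent) at least 2-fold toward the IP (red) or the IgG (blue) at each gene, with black lines for the share over all windows of the array that holds the gene. GATA1 (41.7%) and GATA2 (19.1%) stand far above the IP line of their array and GATA3 (10.0%) slightly above it. GATA1, GATA2, GATA4 and ZFPM1 have no window on the IgG side.

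GATA1, the gene of the immunoprecipitated factor itself, was probed from -4090 to 2251 bp by 28 probes on chromosome X (48397090 to 48403482). Its probes leaned toward the IP over most of this stretch, with 21 of 28 above 0, 9 of them at least 2-fold toward the IP and none 2-fold toward the IgG. The mean of its probes was 0.68 (SD 0.86 over 28 probes), above that of 98.2% of the 8759 genes on chIP2. Of its 24 windows, 10 were enriched (41.7%). Among the 5218 genes of chIP2 with at least 20 windows, this share lay at the 99.7th percentile. The height of its best window was less unusual. At 1.63 it lay at the 82.4th percentile of genes.

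The enriched windows of GATA1 formed 2 stretches. The upstream stretch, on chromosome X from 48397187 to 48398005, had window means of 1.05 at -3565 bp and 1.20 at -3348 bp. Its probes at these positions were 1.43 and 1.21. The larger stretch, from 48401061 to 48403253, began just before the start and ran into the gene. It had 8 enriched windows centered from 55 to 1633 bp, in an outer and an inner crest. In the crest next to the start the probes at 55, 240, 404, 524 and 661 bp were 1.16, 1.19, 1.18, 2.52 and 0.91, so the level did not rest on a single probe, although the highest window leaned on the probe at 524 bp. That probe had processed intensities of 6780 in the IP and 1176 in the IgG. The crest further inside had window means of 1.36, 1.47 and 1.36 at 1205, 1442 and 1633 bp. Its highest probe, at 1442 bp, was 2.29 (1833 in the IP and 374 in the IgG), and its neighbors were 0.91 and 1.21.

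Between these crests the ratio was lower but above the array median. The window means were 0.56 at 799 and 1091 bp, from probes of -0.10 at 799 bp and 0.87 at 1091 bp. Just before the start, in and next to the sequence printed above, the probes at -353 and -249 bp were -0.36 and -0.95, and the windows centered there had means of -0.29 and -0.18, the lowest of the locus. So the enriched windows were centered on the gene side of the start and in the far upstream stretch, and none in the 500 bp before the start. The enriched window centered at 55 bp reached back to the probe at -126 bp (0.78). A lone probe at -1317 bp reached 2.01, but the probes beside it were -0.30 and 0.76 and no window there was enriched. At the far end, probes at 2139 and 2251 bp were -0.24 and -0.14. The array held no GATA1 probe beyond 2251 bp.

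GATA2, the progenitor-stage factor that shares targets with GATA1, was probed from -4662 to 8512 bp by 70 probes on chromosome 3 (129686185 to 129699413). It had 13 enriched windows of 68 (19.1%) and none depleted, and 49 of its 70 probes were above 0. The mean of its probes was 0.44 (SD 0.77), above that of 92.1% of the 8297 genes on chIP1. Its share of enriched windows lay at the 90.0th percentile of 5413 genes with at least 20 windows.

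With enriched windows within 1000 bp joined, those of GATA2 lay in 4 stretches, 2 upstream and 2 inside the gene, with none at the start. The outermost, from 129697912 to 129699413, held the highest window of the gene, 1.77 at -4557 bp. Its probes were 1.33 at -4443 bp, 1.30 at -4557 bp and 2.68 at -4662 bp. The last of these is the outermost probe of the gene, so the far side of this stretch was not measured. The same stretch held a second point at -3494 bp, where the probe was 2.39 (6135 in the IP and 1170 in the IgG) but its neighbors were 0.71 and 0.18. The windows there were 1.25 and 1.09. Between the 2 points, the windows at -3768, -3990, -4221 and -4338 bp were 0.91, 0.27, 0.49 and 0.88, under the threshold. The number of upstream stretches thus depended on the distance used for joining.

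The upstream stretch nearer the start, from 129695916 to 129697323, was lower and even. Its windows were 1.01, 1.07 and 1.02 at -2368, -2199 and -1940 bp, from probes of 0.63, 1.10, 1.32 and 0.80 at -2574, -2368, -2199 and -1940 bp, and the next probe, at -1218 bp, was 0.93. These were among the brightest windows of the array, with a mean intensity at the 97.9th percentile. Inside the gene, the stretch from 129691830 to 129692534 had windows of 1.14, 1.49 and 1.32 at 2427, 2634 and 2752 bp, and its 5 probes from 2221 to 2874 bp ran from 0.74 to 2.06. The innermost stretch, from 129688498 to 129689402, had windows of 1.17, 1.19 and 1.14 at 5526, 5666 and 5890 bp, all of which held the probe at 5666 bp (2.09), next to probes of 0.60 and 0.88.

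At the start of GATA2 on the array the ratio was near 0. The 5 probes within 500 bp of the start had a mean of 0.10 and the 7 from 500 to 2000 bp inside had a mean of 0.01, whereas the 15 probes more than 2000 bp upstream had a mean of 0.93. Over all probes of chIP1, the mean was 0.28 within 500 bp of a start and -0.19 more than 2000 bp upstream, so the order of these distances at GATA2 was the opposite of that over the array. Around the place where the spacing of the RefSeq starts puts the proximal start, the windows at 4325, 4507 and 4856 bp were 0.54, 0.94 and 0.59, under the threshold. The lowest window of GATA2 was -0.78 at 3628 bp and rested on a probe of -1.93.

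GATA3, the T cell factor, was probed by 30 probes from -1203 to 4173 bp on chromosome 10 (8135447 to 8140867), and 7 of them, those upstream of the start, were also annotated to FLJ45983. Its values scattered more than those of any other member. The SD of its probes was 1.20, with a mean of -0.01, and probes ranged from -3.16 to 3.28. It had 3 enriched and 3 depleted windows of 30, each 10.0%, close to the shares of chIP1. The highest window, 1.38 at 3509 bp, came from a probe of 3.28 at 3281 bp with neighbors of 0.26 and 0.27. That probe was dim (957 in the IP and 98.9 in the IgG, at the 16.1st percentile of intensity). The window at 1475 bp (1.21) likewise leaned on a probe of 2.33. The depleted windows at 2538 and 2727 bp (-1.25 and -1.32) rested on 4 probes in a row between -1.54 and -1.02, and the depleted window at 561 bp on a lone probe of -3.16. Upstream, where the probes are shared with FLJ45983, no window was called, and the lowest means were -0.95 at -756 and -444 bp.

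With the ratios and windows defined above, GATA4, a factor of heart and endoderm, held the highest window of all members. It was probed by 84 probes on chromosome 8, in a block around the start and another one further inside the gene that ran to 55516 bp. The mean of the window at -1217 bp was 2.24 (11597811 to 11598226, 94.8th percentile of genes), from probes of 3.25, 1.65 and 1.82. With its neighbors at -1569, -1328 and -964 bp (1.41, 1.91 and 1.33) it made a stretch of 4 windows, from 11597431 to 11598357. These 4 windows had a mean intensity at the 33.0th percentile of windows, whereas the enriched stretches of GATA1 and GATA2 were at the 70.3rd or above. The probe of 3.25 had intensities of 1031 in the IP and 108 in the IgG, and the probes beside it had 726 against 232 and 1580 against 447. The second stretch, at 5498 and 5659 bp, had windows of 1.29 and 1.43. Apart from these 6 windows none of the locus passed the threshold on either side, and the highest of the rest was 0.96 at 5139 bp. Inside the gene, all windows from 1464 to 3887 bp lay below 0, down to -0.78 at 1634 bp. The mean of all 84 probes was 0.09, 40 of the 84 were above 0, and the share of enriched windows was 7.32%, close to that of chIP1. The lowest window was -0.97, just inside the threshold, so GATA4 had none that was depleted.

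GATA5, another factor of heart and gut, had a single enriched window of 35, 1.16 at -3540 bp on chromosome 20 (60487579 to 60488339), and a single depleted window, -1.13 at 1234 bp. The enriched window leaned on a probe of 2.19. A pair of probes, 1.48 and 1.34, gave a window of 0.98 at -724 bp, just under the threshold. The mean over the 39 probes of GATA5 was 0.29, above that of 81.9% of genes. Of these probes 30 were above 0 (76.9%), a share like that of GATA1 (75%).

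GATA6, which acts in heart, lung and gut, passed the threshold on both sides within a short distance upstream of its start. The windows at -1879 and -1525 bp on chromosome 18 were enriched (1.16 and 1.12), and 3 windows at -911, -748 and -535 bp were depleted (-1.53, -1.88 and -1.27, 18002239 to 18003164). The window at -748 bp was the lowest of any member, and 12.5% of the genes on chIP2 had a lower one. Its probes were -1.58, -1.87 and -2.19, with intensities of 423, 234 and 67.9 in the IP and 1262, 852 and 309 in the IgG. The probe next to the start side was 0.25, so the change back to the median took place between neighboring probes. From -157 to 544 bp no window of GATA6 passed 0.38.

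ZFPM1, the FOG1 gene, had 1 enriched window of 31 and none depleted, on chromosome 16. The window, 1.17 at 1566 bp (87048601 to 87048967), had probes of 1.75, 0.61 and 1.13 and was bright, at the 93.2nd percentile of windows. It stood at the end of a run of windows between 0.80 and 0.94 from 692 to 1398 bp. This run leaned on probes of 1.87 at 801 bp and 1.75 at 1398 bp, and the probes between them were 0.56 and 0.33. The 8 probes from 500 to 2000 bp inside the gene had a mean of 0.85, whereas the mean over chIP2 at this distance was -0.02. The mean of all 33 probes was 0.38, above that of 88.9% of genes, and 23 of the 33 were above 0. Upstream of its start no window passed 0.77.

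**Figure D2:**
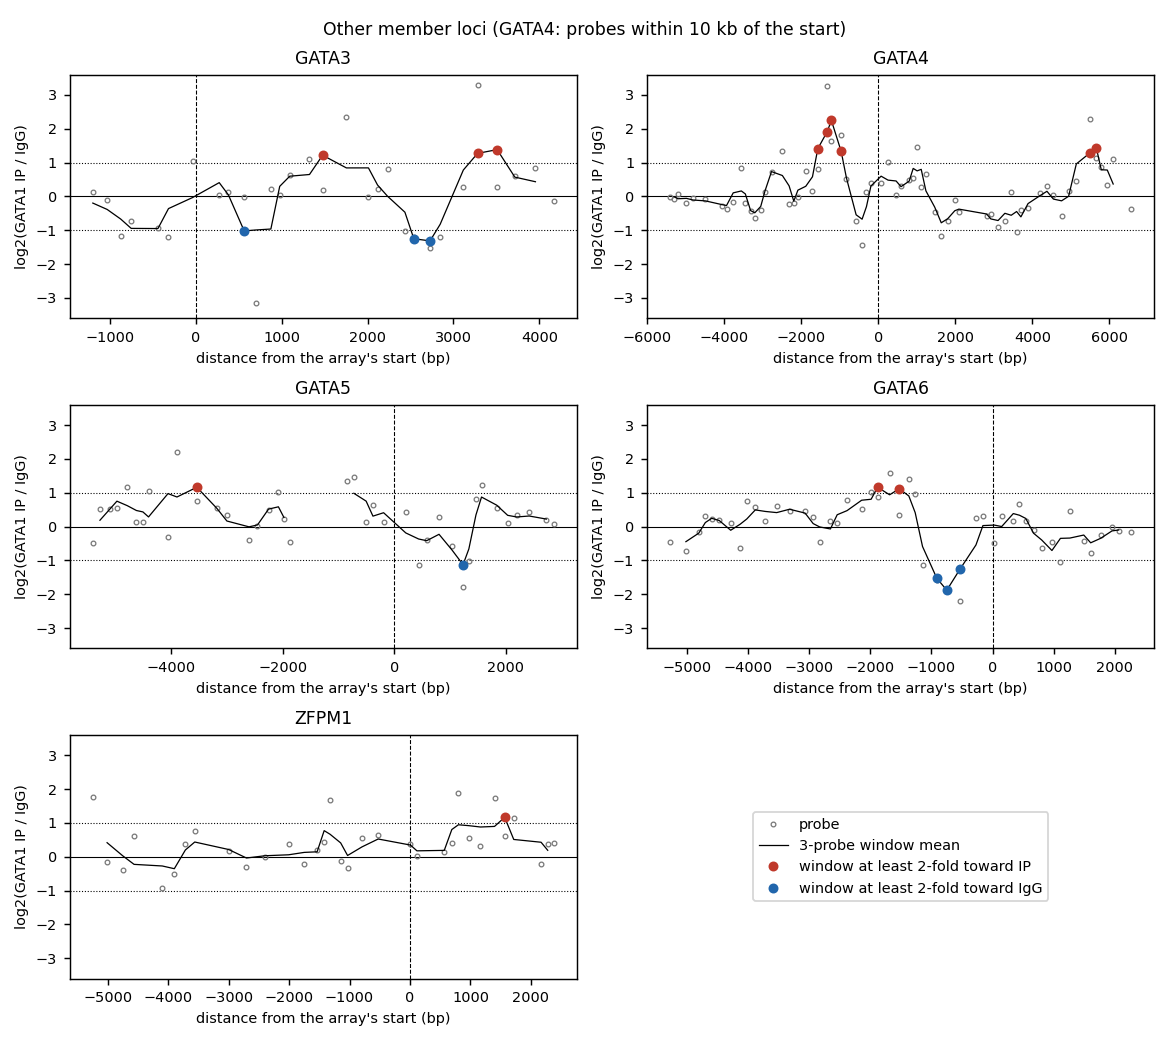
log2 of the IP over the IgG against distance from the array's start (bp) at GATA3, GATA4, GATA5, GATA6 and ZFPM1, with the same symbols as in the plot of GATA1 and GATA2 and depleted windows in blue. GATA4 has its crest at -1217 bp (2.24), GATA6 has an enriched stretch followed by a depleted stretch before the start, and ZFPM1 has a low run inside the gene.

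Members differed in the brightness of their enriched windows and of their loci as a whole. Ratios of dim windows scattered more over the whole arrays. The SD of window means was 0.88 among windows dimmer than the median of chIP1 and 0.62 among brighter ones (0.89 and 0.58 on chIP2). All 23 enriched windows of GATA1 and GATA2 and the window of ZFPM1 were brighter than the median of their array. Of the 12 enriched windows of GATA3 to GATA6, 4 were. Called or not, most windows were that bright at GATA1 (23 of 24), GATA2 (56 of 68), ZFPM1 (25 of 31) and GATA4 (58 of 82). Fewer were at GATA3 (10 of 30), GATA5 (16 of 35) and GATA6 (20 of 46). Among windows brighter than the median, 10 of 23 at GATA1 and 1 of 25 at ZFPM1 were enriched, against 5.25% over chIP2 (depleted 3.69%), and 13 of 56 at GATA2, against 6.48% over chIP1 (depleted 4.12%). At GATA3 it was 1 of 10 and at GATA4 1 of 58 (chIP1), and at GATA5 it was 1 of 16 and at GATA6 1 of 20 (chIP2). Whether brightness had a part in the ratios of the dim windows was not tested.

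**Figure D3:**
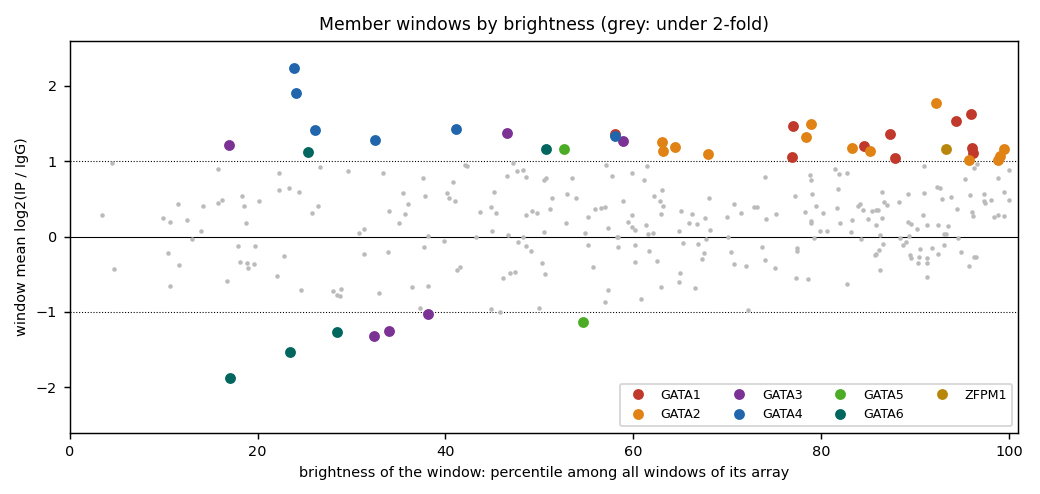
Mean log2 of the IP over the IgG of each member window (vertical axis) against its brightness, as the percentile among all windows of its array (horizontal axis). Colored points are windows at least 2-fold toward either side and grey points the others. The enriched windows of GATA1 and GATA2 lie above the 50th percentile, and the highest window of GATA4 and the lowest of GATA6 lie below the 25th percentile.

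The counts were repeated with another background correction, normexp, which by construction draws the ratios of dim spots toward 0 and so is no independent check on brightness. With it, 3.51% of all windows of chIP1 and 2.99% of those of chIP2 were enriched. GATA1 then had 9 enriched windows of 24, GATA2 had 15 of 68, GATA4 had 3 of 82 and ZFPM1 had 1 of 31. GATA3, GATA5 and GATA6 had none, with highest windows of 0.80, 0.98 and 0.998. The highest window of GATA4 fell to 1.27, under the 1.69 of GATA1 and 1.70 of GATA2. The share of enriched windows lay at the 99.9th percentile of genes for GATA1 and at the 98.3rd for GATA2. Of the depleted windows only the pair at -911 and -748 bp of GATA6 passed, at -1.02 and -1.12. With loess, GATA1 had 8 enriched windows (98.4th percentile) and GATA2 had 9 (74.9th percentile), so the rank of GATA2 depended on the normalization. With the trend of the ratio on distance to the start removed, GATA1 had 8 (98.8th percentile) and GATA2 had 17 (95.7th percentile).

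**Figure D4:**
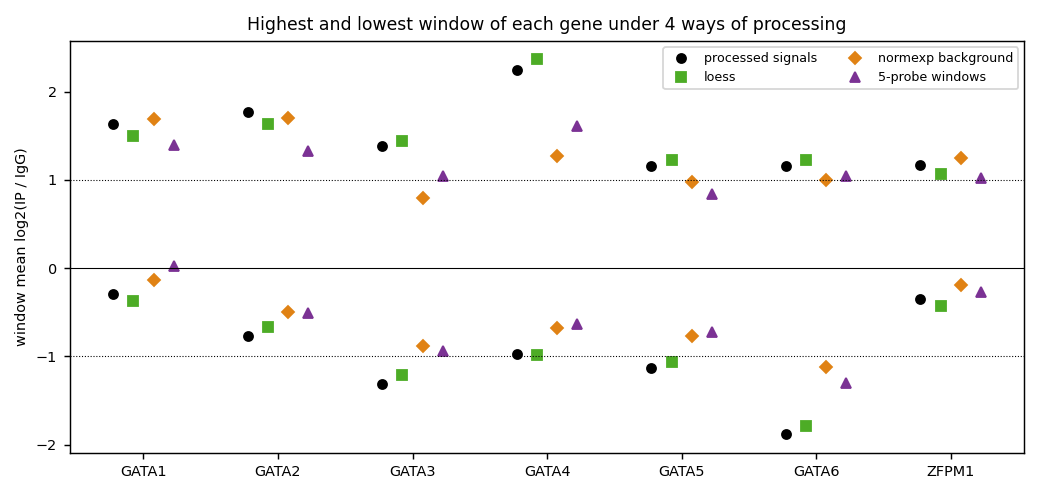
Highest (upper points) and lowest (lower points) window mean, log2 of the IP over the IgG, of each gene with the processed signals, loess, normexp and 5-probe windows, with dotted lines at 2-fold. The highest windows of GATA1, GATA2, GATA4 and ZFPM1 stay at or above 2-fold in all 4, and only GATA6 stays below -1 in all 4.

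Genes for the protein partners of GATA1 and FOG1 were counted in the same way. Of 32 listed genes, 31 had a window, and GFI1B had none. At least 1 enriched window was found at 19 of the 31 (61.3%), against 57.1% of all genes, and at least 1 depleted window at 18 (58.1%), against 52.9%. Their median highest window was 1.19, against 1.09 over all genes and 1.38 over the 7 members. Partner genes had a median of 30 windows, against 23 over all genes. Of their 1057 windows, 84 were enriched (7.95%), close to the 7.98% over chIP1 and 7.26% over chIP2. The highest windows were those of FLI1 (2.24), an ETS factor of megakaryocytes, TCF3 (2.12) and TAL1 (1.85), which form a bHLH dimer, CBFB (2.01), the partner of RUNX factors, RBBP4 (1.55), a subunit of the NuRD corepressor that FOG1 recruits, and LMO4 (1.52), a LIM-only adaptor. With normexp they were 1.22, 1.40, 1.74, 1.09, 1.35 and 0.61 in the same order, so that LMO4 fell under the threshold. The window of FLI1 leaned on a probe of 4.31. Depleted windows were also present at FLI1 (5), LMO4 (4) and TCF3 (1), and absent at TAL1, CBFB and RBBP4. Of 8 other genes whose products carry a GATA-type zinc finger, 3 had an enriched window (37.5%, against 57.1% of all genes). They were GATAD1 (1.96), TRPS1 (1.51) and MTA2 (1.29), and 5 of the 8 had a depleted window (62.5%, against 52.9%). Most of the 8, MTA2 among them, are in the partner list too, so the 2 lists are not separate.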

How the data were processed

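DNA from 2 hybridizations, 1 per array, was measured. Per the file headers, the deposited intensity columns are output of Agilent Feature Extraction 9.5.3.1, in which processed intensities are surface-subtracted, detrended and dye-normalized by a linear factor. The deposited log10 ratios are Cy5 over Cy3, and the deposited p-values come from the scanner error model within 1 array. In the study, lowess and median normalization preceded peak calling in commercial software, which was not used here.

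Probes had to be free of non-uniformity flags and well above background in at least 1 channel, which kept 237004 of 237210 probes on chIP1 and 236864 of 237201 on chIP2. A control probe with 480 spots on each array had an SD of 0.048 and 0.044 (log2), which covers spots of 1 hybridization only. Sonicated fragments, 500 to 1000 bp long on average per the labels, span several probes. Enriched windows of a gene within 1000 bp were joined. Percentiles are ranks within 1 array, not tests.

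Members and lists were chosen with earlier results of these data known. Named genes are all members, and of each list those with an enriched window, at most the 6 highest, plus any without a window. Scripts used Python 3.11.15, numpy 2.4.6, pandas 2.3.3, R 4.3.3 and limma 3.58.1 (normexp with offset 50, loess with span 0.3). The code of the window step was checked on simulated probes with less scatter than these arrays. That check does not measure false calls in these data. The alternatives are in the closing section.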

Additional observations from a re-analysis of the deposited data

How the results depend on the processing

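No paired analysis was possible because there was 1 hybridization per array and the probes differed, and no replicate could be left out. Of 13 alternatives, 10 left all 7 genes with an enriched window. With 5-probe windows 6 had one, with normexp 4 did and with a 3-fold threshold 3 did. The count of enriched windows, 36, was 81 at 1.5-fold, 4 at 3-fold, 20 with 5-probe windows and 70 by the scanner error model (deposited p-value of the center probe under 0.001 and of a neighbor under 0.1). The other alternatives left it within 1.5 times. Depleted windows were less stable. Their count, 7, was 2 with normexp, 3 with 5-probe windows, 1 at 3-fold, 21 with single probes, 29 at 1.5-fold, 29 by the error model and 11 with the distance trend removed, and the genes that had one, 3 in the main setting, were 1 with normexp, 5-probe windows or 3-fold, 5 with single probes or 1.5-fold and 7 by the error model. The fewer or more windows at other thresholds follow from the thresholds themselves, and the cause of the other changes was not tested. For partner genes 6 alternatives were run, and those with an enriched window numbered 4 at 3-fold and 14 to 27 with loess, normexp, the series values, 5-probe windows and 1.5-fold. GATA-type zinc finger genes, whose alternatives were chosen after seeing the data, numbered 5 at 1.5-fold and 1 at 3-fold. Under the alternatives, the share over all windows was counted only for enriched windows with normexp, and no share over all genes was counted. Apart from the ranks given above, these counts therefore do not tell how the members or lists compare with the arrays. Of single values, the highest window kept its side of 2-fold in 66 of 70 alternatives and the lowest in 64 of 70. Both were taken anew in each alternative, so they could be other windows, and no single window was followed. With the dimmest windows left out, the highest of GATA4 was 1.43 in place of 2.24, under the 1.63 of GATA1 and 1.77 of GATA2. The lowest of GATA6 was then -1.27 in place of -1.88. The exceptions for the highest window were GATA3, GATA5 and GATA6 with normexp and GATA5 with 5-probe windows (0.84). Each value rests on 1 hybridization, and dim probes, as at the crest of GATA4, carry the least signal over background.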
